A study of Mus musculus with 24 samples.

Results

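The p53 pathway was followed here through 38 genes: p53 itself, its regulators and established p53 targets, leaving out Cdkn1a and the BCL2 family. They were matched by gene symbol, and the list was chosen with earlier results of these data known. Of these, 36 were among the 17464 genes with deposited values, and Ak1 and Eda2r were not analysed here. RNA-seq had been run on 3 subsets of splenic regulatory T (Treg) cells sorted from 4 young (2 months) and 4 old (26 months) mice, which gave 24 libraries in 6 groups of 4. All mice were wild-type C57BL/6JRccHsd, and no treatment or transgene was named for them. Resting cells (rTreg) were gated as CD62L+ CD44-, activated cells (aTreg) as CD62L- CD44+, and kTreg cells by KLRG1, a co-inhibitory receptor of antigen-experienced lymphocytes. The design text has all 3 subsets sorted from these mice. Libraries of 1 age with the same sample number are taken here as 1 mouse, which the labels do not state, and counts of mice rest on this.

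The transcription factor p53 accumulates after DNA damage and other stress, when kinases release it from Mdm2, the ubiquitin ligase that marks it for degradation. It then binds paired sites near its targets and raises the transcription of genes that halt the cell cycle, repair DNA, limit growth signalling or bring on apoptosis. Mdm2 is itself a target, which closes a feedback loop, and in T cells the pathway restrains clonal expansion and guards against cells with broken DNA.

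The reads counted on listed genes numbered 15045747 in the shallowest library and 29521942 in the deepest. Values are a normalized signal, the reads of a gene divided by the size factor of its library, so that 1 read was worth between 0.694 and 1.32 units. Foxp3, Cd4 and Cd3e were detected in every library. Young kTreg replicate 4 stood apart, with 4913 genes listed at 0 against 419 to 2756 in the other 23 libraries. The summed level of 6 macrophage and monocyte markers was 10110 to 26390 in old rTreg cells and 586 to 8611 in young rTreg cells, and in young kTreg cells it ran from 0 in replicate 4 to 27500 in replicate 2. The sum of 5 B cell markers was highest in replicate 2 in each young subset. It was 15200 there in rTreg, 8260 in aTreg and 6664 in kTreg cells, beside group medians of 1202, 1083 and 1830. In sorted bulk samples, fewer cells of a type and less RNA per cell cannot be told apart.

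All 36 genes passed the filter on low values, and 34 of them had a value of at least 10 in all 24 libraries. The exceptions were Perp, a membrane protein of apoptosis, listed at 0 in 1 library, and Dram1, a lysosomal protein of autophagy, listed at 0 in 2. Per kilobase of exon, the median level over the 24 libraries was highest for Cd82 (4057), followed by Ccng1 (1127), Btg2 (1026) and Sesn1 (998). Trp53 stood sixth of 36 at 707 units per kilobase, and Mdm2 had 292. The death receptor gene Tnfrsf10b, at 15.1, was among the 3 lowest, above Zmat3 and Dram1.

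A sequence that targets of p53 can share was looked for around the starts of the members. They were chosen as established p53 targets, so the shares below are not independent of that choice. The p53 response element, 20 bases made of 2 adjacent sites of 10, was matched to GRCm39 within 2000 bases on either side of the GENCODE M39 start, on both strands, with up to 2 mismatches and the fixed C and G of each site kept. Such a match lay near 7 of 36 members (19.4%) and near 550 of 12641 protein-coding genes tested (4.35%). With at most 1 mismatch the counts were 3 members (8.33%) and 83 genes (0.657%), and an exact match was found near 1 member, Zmat3, and 12 genes (0.0949%). The matches printed are those of members that differed between groups (Ccng1, Pidd1, Cd82) and those closest to the element (Zmat3, Rps27l). The capitals mark the 20 bases and the lower case the 5 bases on either side, written on the strand of the gene.
Ccng1, position -160 from the start, chr11:40646289-40646308, 1 mismatch: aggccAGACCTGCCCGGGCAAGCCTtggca
Ccng1, position 366, intron 1, chr11:40645763-40645782, 1 mismatch: ccggaACGCAAGCCCGGGCTAGTCTgcgcc
Zmat3, intron 1, chr3:32418480-32418499, 0 mismatches: gtgagAAACAAGCCCAGGCATGTCTtggga
Rps27l, intron 1, chr9:66853578-66853597, 1 mismatch: atggcGGGCTTGTTGAGACTTGTCCgggcg
Pidd1, exon 2, chr7:141023216-141023235, 2 mismatches: ttgctTGGCAAGCTGGGACATGTCTggtcc
Pidd1, exon 2, chr7:141023239-141023258, 2 mismatches: ctatcAGCCTTGCCTAAGCAGGCTTgcttg
Cd82, position -1630 from the start, chr2:93294467-93294486, 2 mismatches: gcttcAAACTTGTTTAGCCAAGGTTggcct
The minus strand carries 4 of these genes, Ccng1, Zmat3, Pidd1 and Cd82, and the plus strand Rps27l. A match of letters is not a measure of binding, and a gene without one, such as Mdm2, has only no such letters in this window.

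**Figure D1:**
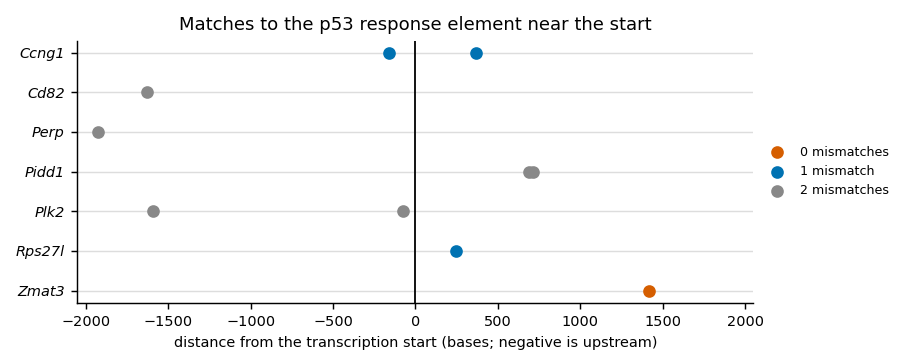
Matches to the p53 response element around the starts of the 7 members that had any. The horizontal axis gives the distance from the transcription start in bases and the colour the mismatches, and the exact match of Zmat3 lies 1418 bases into the gene.

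The first question was whether the pathway differed between the 3 Treg subsets, with equal weight to both ages. A member counted as called where limma on log2(value + 1), with Benjamini-Hochberg adjustment over all 16630 genes tested, gave an adjusted p below 0.05 and a fold above 1.5. Compared with aTreg cells, kTreg cells had higher levels of 4 of 36 members, Apaf1, Tnfrsf10b, Pidd1 and Sesn2, and lower levels of 0, against 7.39% of all genes called in either direction and 4.13% called higher. Compared with rTreg cells, 9 of 36 were higher in kTreg cells and 0 lower, against 15.5% and 9.37% of all genes. These were Apaf1, Ccng1, Polk, Cd82, Plk3, Dcxr, Abhd4, Phlda3 and Ei24. In aTreg against rTreg cells 4 were higher, Cd82, Plk3, Abhd4 and Phlda3, and 0 lower, against 8.01% and 5.23%. The lower calls of all genes were 3.26%, 6.09% and 2.78% in these comparisons. At an unadjusted p below 0.05, 14, 17 and 10 of 36 members passed, against 25%, 34.3% and 21.8% of all genes. At the adjusted p alone, with no fold threshold, the members and the share of all genes were 8 against 12.1%, 13 against 22.8% and 6 against 10.5%.

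The median log2 fold change of the 36 members was 0.12 for kTreg against aTreg cells, beside -0.08 over all genes tested. It was 0.23 for kTreg against rTreg cells, beside -0.01, and 0.03 for aTreg against rTreg cells, beside 0.06. Over the 3 subset and 3 age comparisons, 23 of 36 members were called in none, while 13 were called in at least 1, against 23.1% of all genes. The study itself displayed Apaf1, Sesn2 and Tnfrsf10b in a heat map of these libraries, so these genes are not independent evidence of a direction. The comparisons share libraries, and their counts are not independent of each other.

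By role, the kTreg against aTreg calls were 3 of 9 apoptosis targets and 1 of 6 metabolic targets, beside 7.39% of all genes. The kTreg against rTreg calls were 3 of 9 apoptosis targets, 2 of 6 metabolic targets, 2 of 8 cell cycle brakes, 1 of 5 repair genes and 1 of 4 survival and surface genes. The share of all genes there was 15.5%, and counts in lists this short do not rank the roles. Without young kTreg replicate 4 the members called numbered 4, 8 and 7 in the 3 comparisons, against 9.33%, 18.8% and 10.98% of all genes. Perp joined and Pidd1 left kTreg against aTreg cells, Dram1 joined and Ei24 and Phlda3 left kTreg against rTreg cells, and Dcxr, Polk and Rrm2b joined aTreg against rTreg cells. The macrophage and monocyte markers summed to 73.6 to 3048 in young and 238 to 372 in old aTreg cells, and to 2100 to 3326 in old kTreg cells. The 22 cell cycle genes summed to 39610 to 69070 in young kTreg and 24370 to 32120 in young aTreg cells, and to 28830 to 34880 and 27640 to 29810 in the old ones, which overlapped. The 4 NK cell markers, of which 1 was called higher and 2 lower in kTreg than in aTreg cells, summed to 334 to 686 in young kTreg and 946 to 1131 in young aTreg cells, and to 534 to 1319 and 1812 to 4037 in the old ones. The part of these in the subset differences was not tested.

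**Figure D2:**
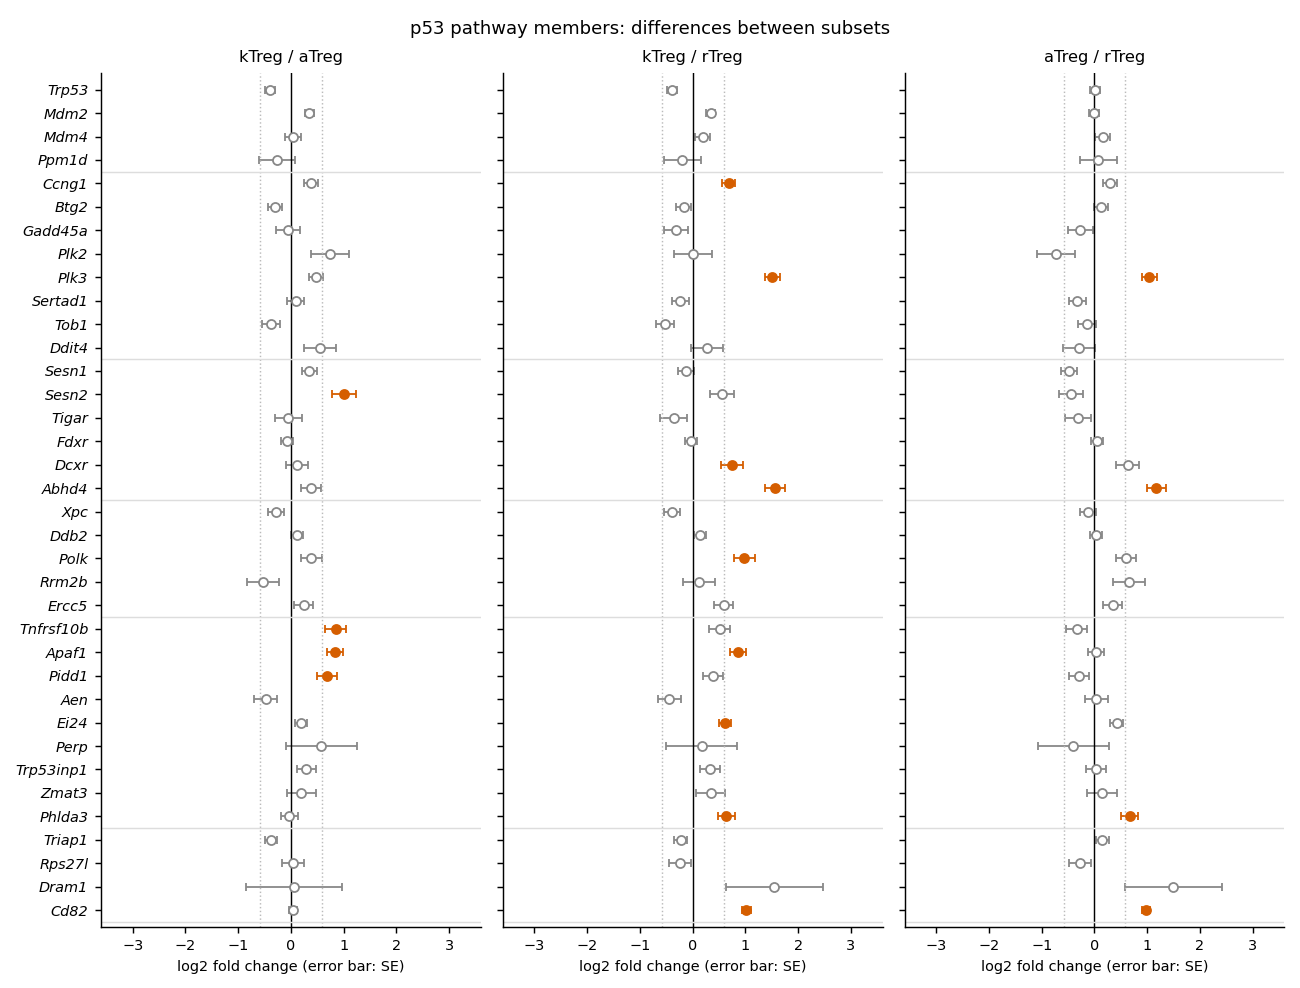
Log2 fold changes of the 36 members between subsets, with the standard error as bars, ordered by role and separated by grey lines. Filled orange points passed the adjusted p and the fold of 1.5 (dotted lines), and all of them lie to the right of 0, 4 for kTreg against aTreg, 9 for kTreg against rTreg and 4 for aTreg against rTreg cells.

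Trp53 (chr11:69469669-69482701, GRCm39), the gene of p53, had less RNA in kTreg than in aTreg cells at both ages, and less than in rTreg cells in young mice. Its levels were 6825, 6003, 7012 and 6229 in young rTreg cells, 5753, 5504, 5000 and 5899 in young aTreg cells and 4161, 4788, 3856 and 3368 in young kTreg cells. Old mice had 5694, 4415, 3348 and 5374 in old rTreg cells, 6192, 5373, 5058 and 5481 in old aTreg cells and 4217, 3972, 4321 and 5062 in old kTreg cells. Each kTreg library was below the aTreg library of the same mouse, and kTreg cells were below rTreg cells in 7 of 8 mice. The difference passed the adjusted p but not the fold, with log2 fold change -0.40 ± 0.10 (SE), adjusted p = 0.00809 against aTreg cells and log2 fold change -0.39 ± 0.10 (SE), adjusted p = 0.00507 against rTreg cells. Against rTreg cells the log2 difference was -0.70 in young and -0.08 in old mice, where the libraries overlapped. Against aTreg cells it was -0.46 in young and -0.33 in old mice.

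Mdm2 (chr10:117524780-117546730) went the other way. Its levels were 1941, 1992, 1730 and 2381 in young rTreg cells, 1947, 2389, 2088 and 2368 in young aTreg cells and 2895, 2705, 3003 and 3034 in young kTreg cells. Old mice had 2604, 1715, 1936 and 2584 in old rTreg cells, 1903, 1793, 2091 and 2060 in old aTreg cells and 2260, 2581, 2496 and 2244 in old kTreg cells. All 8 mice had more Mdm2 RNA in kTreg than in aTreg cells, by 1.27-fold (log2 fold change 0.35 ± 0.09 (SE), adjusted p = 0.0124), and 6 of 8 had more than in rTreg cells (log2 fold change 0.34 ± 0.09 (SE), adjusted p = 0.0081), both below the fold of 1.5. In young mice the 4 kTreg libraries lay above those of both other subsets, and in old mice they overlapped rTreg cells. Mdm4, a relative of Mdm2 that binds and restrains p53, had levels between 1131 and 2445, and Ppm1d, the phosphatase that reverses damage signalling, between 94.3 and 1266. Neither was called in any comparison, and the lowest Ppm1d value, in young kTreg replicate 4, lay far under the other 3 young kTreg libraries, which held 1075 to 1266.

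The apoptosis targets included 3 of the 4 members called in kTreg against aTreg cells. Tnfrsf10b (chr14:70004916-70021860) encodes the mouse receptor for the death ligand TRAIL. Its levels were 52.4, 96.4, 79.1 and 75.3 in young rTreg cells, 79.1, 49.2, 75.6 and 84.9 in young aTreg cells and 158, 145, 113 and 185 in young kTreg cells. Old mice had 154, 81.2, 92.3 and 86.9 in old rTreg cells, 65.4, 58.9, 79.5 and 58.6 in old aTreg cells and 92.2, 109, 108 and 99.8 in old kTreg cells. Every one of the 8 kTreg libraries lay above every one of the 8 aTreg libraries, a separation seen in 2.81% of all genes, and the level was 1.8-fold higher (log2 fold change 0.85 ± 0.20 (SE), adjusted p = 0.00781). Against rTreg cells the difference did not pass (log2 fold change 0.51 ± 0.20 (SE), adjusted p = 0.0775), and the highest rTreg library, old replicate 1, reached 154.

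Apaf1 (chr10:90825173-90918686) encodes the scaffold of the apoptosome, on which caspase-9 is activated. Its levels were 298, 435, 268 and 452 in young rTreg cells, 322, 534, 382 and 586 in young aTreg cells and 938, 847, 944 and 915 in young kTreg cells. Old mice had 617, 508, 563 and 636 in old rTreg cells, 524, 388, 569.8 and 469.8 in old aTreg cells and 638, 1043, 798 and 586 in old kTreg cells. The 4 young kTreg libraries lay close together, at 911 ± 44.3 (SD, n = 4), and far above the young rTreg and aTreg libraries, whereas old kTreg cells overlapped old rTreg cells. Over both ages Apaf1 was 1.78-fold higher than in aTreg cells (log2 fold change 0.83 ± 0.15 (SE), adjusted p = 0.000858) and 1.82-fold higher than in rTreg cells (log2 fold change 0.86 ± 0.15 (SE), adjusted p = 0.000207). It was called in both comparisons under all 45 alternatives.

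Pidd1 (chr7:141018026-141023938) encodes the death domain protein of the PIDDosome, which activates caspase-2. Its levels were 244, 314, 207 and 252 in young rTreg cells, 277, 509.7, 235 and 429.6 in young aTreg cells and 358, 486, 485 and 772 in young kTreg cells. Old mice had 492, 647, 332 and 396 in old rTreg cells, 197, 204, 253 and 225 in old aTreg cells and 346, 335, 544 and 353 in old kTreg cells. In 7 of 8 mice kTreg cells held more than aTreg cells (log2 fold change 0.68 ± 0.19 (SE), adjusted p = 0.0206), but the groups overlapped in young mice. The call was lost without young aTreg replicate 3 (adjusted p = 0.0542 by limma), without old kTreg replicate 3 (0.0543), without the libraries of young mouse 3 (0.083) or old mouse 1 (0.0596), and in a model without age (0.0893). Without young kTreg replicate 4 the log2 fold change was 0.58, under the fold of 1.5. Compared with rTreg cells, Pidd1 in kTreg cells did not pass by limma (log2 fold change 0.39 ± 0.19 (SE), adjusted p = 0.152; 5 of 8 mice). That log2 difference was 1.01 in young and -0.23 in old mice.

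Phlda3 (chr1:135693809-135697686) encodes a small inhibitor of Akt, the survival kinase. Its levels were 151, 146, 199 and 218 in young rTreg cells, 216, 222, 224 and 273 in young aTreg cells and 167, 144, 191 and 292 in young kTreg cells. Old mice had 183, 153, 136 and 126 in old rTreg cells, 269.8, 345, 316 and 219.9 in old aTreg cells and 318, 325, 406 and 278 in old kTreg cells. It was higher than in rTreg cells in both other subsets, 1.59-fold in aTreg cells (log2 fold change 0.67 ± 0.16 (SE), adjusted p = 0.00958; 8 of 8 mice) and 1.55-fold in kTreg cells (log2 fold change 0.64 ± 0.16 (SE), adjusted p = 0.00694; 6 of 8 mice). Against rTreg cells the kTreg difference was 0.12 on the log2 scale in young and 1.15 in old mice, and the difference between the ages did not pass (log2 fold change 1.03 ± 0.33 (SE), adjusted p = 0.0949). The kTreg call over both ages fell under the fold of 1.5 without young kTreg replicate 4 (log2 fold change 0.53), without old kTreg replicate 3 (0.58) and without old mouse 3 (0.56). Ei24, an endoplasmic reticulum protein of p53-induced death, was 1.52-fold higher in kTreg than in rTreg cells in 8 of 8 mice (log2 fold change 0.61 ± 0.12 (SE), adjusted p = 0.000596), a fold that fell under 1.5 in edgeR (log2 fold change 0.575), in DESeq2 (0.58) and in 5 of 32 fits that left out a library or a mouse (0.52 to 0.57).

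The remaining apoptosis targets, Aen, Perp, Trp53inp1 and Zmat3, were not called between subsets. Aen, a nuclease, had levels from 209.7 to 1267, and its lowest value was that of young kTreg replicate 4. Trp53inp1, a stress-induced nuclear protein, ranged from 1341 to 4375, and Zmat3, an RNA-binding zinc finger protein, from 55.5 to 335. Perp ranged from 0 to 212. The exact response element of Zmat3 was accompanied by log2 fold changes of 0.20 ± 0.28 and 0.34 ± 0.28 (SE) for kTreg against aTreg and rTreg cells.

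**Figure D3:**
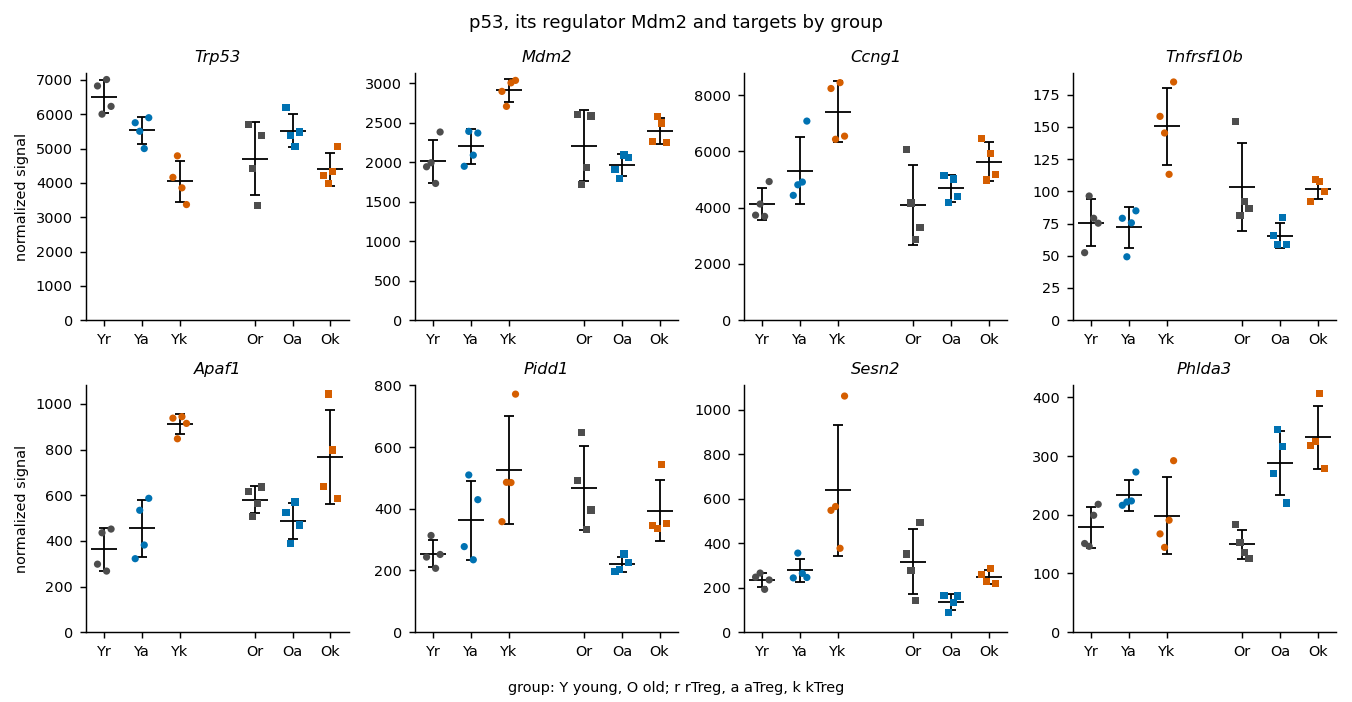
Normalized signal of p53, Mdm2 and 6 targets in each library, circles for young and squares for old mice, with the mean and SD of 4 mice as bars. Tnfrsf10b in kTreg cells (Yk, Ok) lies above all aTreg libraries (Ya, Oa), and the mean of Apaf1 is highest in young kTreg cells at 911 ± 44.3.

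Among metabolic and antioxidant targets, Sesn2 (chr4:132219335-132237815) encodes a sestrin, a stress protein that restrains mTORC1 and senses leucine. Its levels were 248, 266, 192 and 235 in young rTreg cells, 244, 356, 264 and 246 in young aTreg cells and 548, 565, 377 and 1062 in young kTreg cells. Old mice had 352, 276, 143 and 493 in old rTreg cells, 164, 88.8, 133 and 163 in old aTreg cells and 259, 227, 286 and 219 in old kTreg cells. Young kTreg replicate 4 was the highest library, at 1062, and in each mouse kTreg cells held more than aTreg cells, 2-fold on average (log2 fold change 1.00 ± 0.23 (SE), adjusted p = 0.00547). The call was lost in a model without age (adjusted p = 0.0574 by limma). Against rTreg cells kTreg cells did not differ past the threshold (log2 fold change 0.56 ± 0.23 (SE), adjusted p = 0.0823). The log2 fold change over rTreg cells was 1.34 in young and -0.22 in old mice, a difference that did not pass in this model (log2 fold change -1.56 ± 0.46 (SE), adjusted p = 0.065). It passed with the mouse as a block, where Sesn2 was the 1 member called for that age difference.

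Abhd4 (chr14:54491645-54508094), a lipase of N-acyl phospholipids, had the largest log2 fold change of the members called between subsets. Its levels were 404, 418, 152 and 219 in young rTreg cells, 1082, 911, 866 and 634 in young aTreg cells and 1370, 1489, 935 and 1089 in young kTreg cells. Old mice had 868, 783, 930.4 and 965 in old rTreg cells, 1323, 1000, 1642 and 1969 in old aTreg cells and 1603, 1754, 1969 and 1708 in old kTreg cells. In each of 8 mice both other subsets exceeded rTreg cells, 2.95-fold in kTreg cells (log2 fold change 1.56 ± 0.19 (SE), adjusted p = 1.91e-06) and 2.25-fold in aTreg cells (log2 fold change 1.17 ± 0.19 (SE), adjusted p = 0.000197). The rTreg libraries of old mice reached the level of young aTreg cells, so the groups overlapped across ages. Dcxr, a reductase of dicarbonyls and sugars, was higher in kTreg than in rTreg cells in 7 of 8 mice (log2 fold change 0.75 ± 0.21 (SE), adjusted p = 0.0125), a call lost without the libraries of old mouse 4 (adjusted p = 0.0668). In aTreg against rTreg cells Dcxr (log2 fold change 0.63 ± 0.21 (SE), adjusted p = 0.0621) and the polymerase gene Polk (log2 fold change 0.60 ± 0.20 (SE), adjusted p = 0.058) did not pass, and both passed with the mouse as a block, which raised the members called there to 6. Tigar, a brake on glycolysis, and Fdxr, which passes electrons to steroid and iron-sulfur cluster synthesis, were not called between subsets. Tigar ranged from 80.0 to 461 and Fdxr from 629.9 to 1178.

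The cell cycle brakes and stress-response targets held Ccng1 and Plk3 among their called members. Ccng1 (chr11:40639377-40646148) encodes cyclin G1, a strongly induced target that acts back on Mdm2 through a phosphatase, and carries both matches printed for it. Its levels were 3735, 4131, 3691 and 4930 in young rTreg cells, 4439, 4815, 4913 and 7081 in young aTreg cells and 8240, 6434, 8449 and 6545 in young kTreg cells. Old mice had 6079, 4165, 2865 and 3292 in old rTreg cells, 5140, 4181, 5022 and 4402 in old aTreg cells and 6459, 4985, 5926 and 5180 in old kTreg cells. In each of 8 mice kTreg cells held more than rTreg cells, 1.6-fold on average (log2 fold change 0.68 ± 0.13 (SE), adjusted p = 0.000509), and the call held under all 45 alternatives. Against aTreg cells 7 of 8 mice had more, and the difference did not pass (log2 fold change 0.38 ± 0.13 (SE), adjusted p = 0.0609). The lowest and highest rTreg libraries were both from old mice, at 2865 and 6079.

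Plk3 (chr4:116985852-116991226) encodes a stress-responsive polo-like kinase. Its levels were 732, 877, 591 and 731 in young rTreg cells, 1531, 1907, 1633 and 2060 in young aTreg cells and 2719, 3339, 2751 and 1691 in young kTreg cells. Old mice had 1173, 1603, 1076 and 779 in old rTreg cells, 1952, 1763, 2027 and 2035 in old aTreg cells and 2755, 2628, 2693 and 2288 in old kTreg cells. The order rTreg, aTreg, kTreg held in 7 of 8 mice, with young mouse 4 the exception, and all 8 kTreg libraries lay above all 8 rTreg libraries. Such a separation was found in 3.98% of all genes and in 2 members, Plk3 and Cd82. The differences were 2.85-fold for kTreg against rTreg cells (log2 fold change 1.51 ± 0.14 (SE), adjusted p = 4.4e-08) and 2.06-fold for aTreg against rTreg cells (log2 fold change 1.04 ± 0.14 (SE), adjusted p = 2.65e-05), and kTreg exceeded aTreg cells by 1.38-fold (log2 fold change 0.47 ± 0.14 (SE), adjusted p = 0.0267), below the fold of 1.5.

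The other 6 genes of this group, Btg2, Gadd45a, Plk2, Sertad1, Tob1 and Ddit4, were not called in any comparison. Tob1, an antiproliferative protein, was lower in kTreg than in rTreg cells in 8 of 8 mice and passed the adjusted p but not the fold (log2 fold change -0.52 ± 0.17 (SE), adjusted p = 0.0321). Btg2, its relative, ranged from 3909 to 10130, and Ddit4, an mTORC1 inhibitor, from 112 to 576. Sertad1, a partner of the kinase Cdk4, ranged from 1242 to 2918, and Plk2, another polo-like kinase, from 35.1 to 219. The stress sensor Gadd45a ranged from 120.2 to 429.8. Its exons share 55.8% of their bases with E230016M11Rik on the opposite strand, and the strand setting of the counting was not given in the sources used here, so reads of the pair cannot be told apart.

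Of the DNA repair and nucleotide supply targets, Polk, a polymerase that copies past damaged bases, was 1.97-fold higher in kTreg than in rTreg cells (log2 fold change 0.98 ± 0.20 (SE), adjusted p = 0.000858; 7 of 8 mice). Its highest value, 1057, was that of young kTreg replicate 4, and the call held under all 45 alternatives. The log2 difference of kTreg from rTreg cells was 1.48 in young and 0.48 in old mice. Ercc5, the XPG nuclease of nucleotide excision repair, passed the adjusted p with a fold just under 1.5 (log2 fold change 0.58 ± 0.18 (SE), adjusted p = 0.022; 8 of 8 mice). The damage recognition genes Xpc and Ddb2 and the ribonucleotide reductase subunit Rrm2b were not called. In young kTreg replicate 4 Xpc was 363 against 904 to 919 in the other 3 libraries, Ddb2 was 982 against 1871 to 1955, and Rrm2b was 52.2 against 308 to 456. Ddb2 shares 37% of its exon bases with Acp2 on the opposite strand.

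Cd82 (chr2:93249455-93293485) encodes a tetraspanin of the cell surface that limits migration and signalling. Its levels were 9098, 10280, 6627 and 7759 in young rTreg cells, 17800, 17570, 15040 and 15180 in young aTreg cells and 18200, 21370, 17780 and 18040 in young kTreg cells. Old mice had 12680, 15110, 12570 and 11460 in old rTreg cells, 25600, 26980, 23010 and 26320 in old aTreg cells and 23700, 22140, 23970 and 23620 in old kTreg cells. All 8 kTreg libraries lay above all 8 rTreg libraries, with the difference at 2.02-fold (log2 fold change 1.02 ± 0.08 (SE), adjusted p = 5.27e-09), and aTreg cells exceeded rTreg cells 1.97-fold in 8 of 8 mice (log2 fold change 0.98 ± 0.08 (SE), adjusted p = 6.26e-08). Between kTreg and aTreg cells the log2 difference was 0.04 ± 0.08 (SE), and 5 of 8 mice were higher in kTreg cells. Triap1, an inhibitor of apoptosis, was lower in kTreg than in aTreg cells in 8 of 8 mice, with a fold under 1.5 (log2 fold change -0.38 ± 0.12 (SE), adjusted p = 0.0429). Rps27l, from 806 to 2497, and Dram1, from 0 to 149, were not called, and the ribosomal protein gene Rps27l has a near-identical relative, Rps27, between which reads could be split.

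The second question was whether old and young mice differed within each subset. In rTreg cells 3 of 36 members were higher in old mice, Abhd4, Cd82 and Apaf1, and 0 lower, against 5.83% of all genes called (4.12% higher and 1.71% lower). In aTreg cells Cd82 was higher and Sesn1 lower, 2 of 36, against 2.71% of all genes (1.85% higher, 0.86% lower). In kTreg cells Sesn1 was lower, 1 of 36, against 1.26% (1.02% higher, 0.235% lower). At an unadjusted p below 0.05, 14, 5 and 16 of 36 members passed, against 22%, 12.5% and 15.5% of all genes. At the adjusted p alone the members and the share of all genes were 4 against 6.7%, 2 against 3.05% and 1 against 1.32%. The median log2 fold change of the members was 0.03, -0.08 and 0.09 in rTreg, aTreg and kTreg cells, beside -0.08, 0.01 and 0.12 over all genes. Without young kTreg replicate 4, 8, 3 and 2 members were called in rTreg, aTreg and kTreg cells, against 10.6%, 4.53% and 1.09% of all genes. Perp, Pidd1, Plk3, Rrm2b and Tigar joined in rTreg, Sesn2 in aTreg and Phlda3 in kTreg cells, all higher in old mice but Rrm2b and Sesn2. The median shift of all kTreg genes was 0.00 where libraries were centred on their medians and 0.02 without young kTreg replicate 4.

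**Figure D4:**
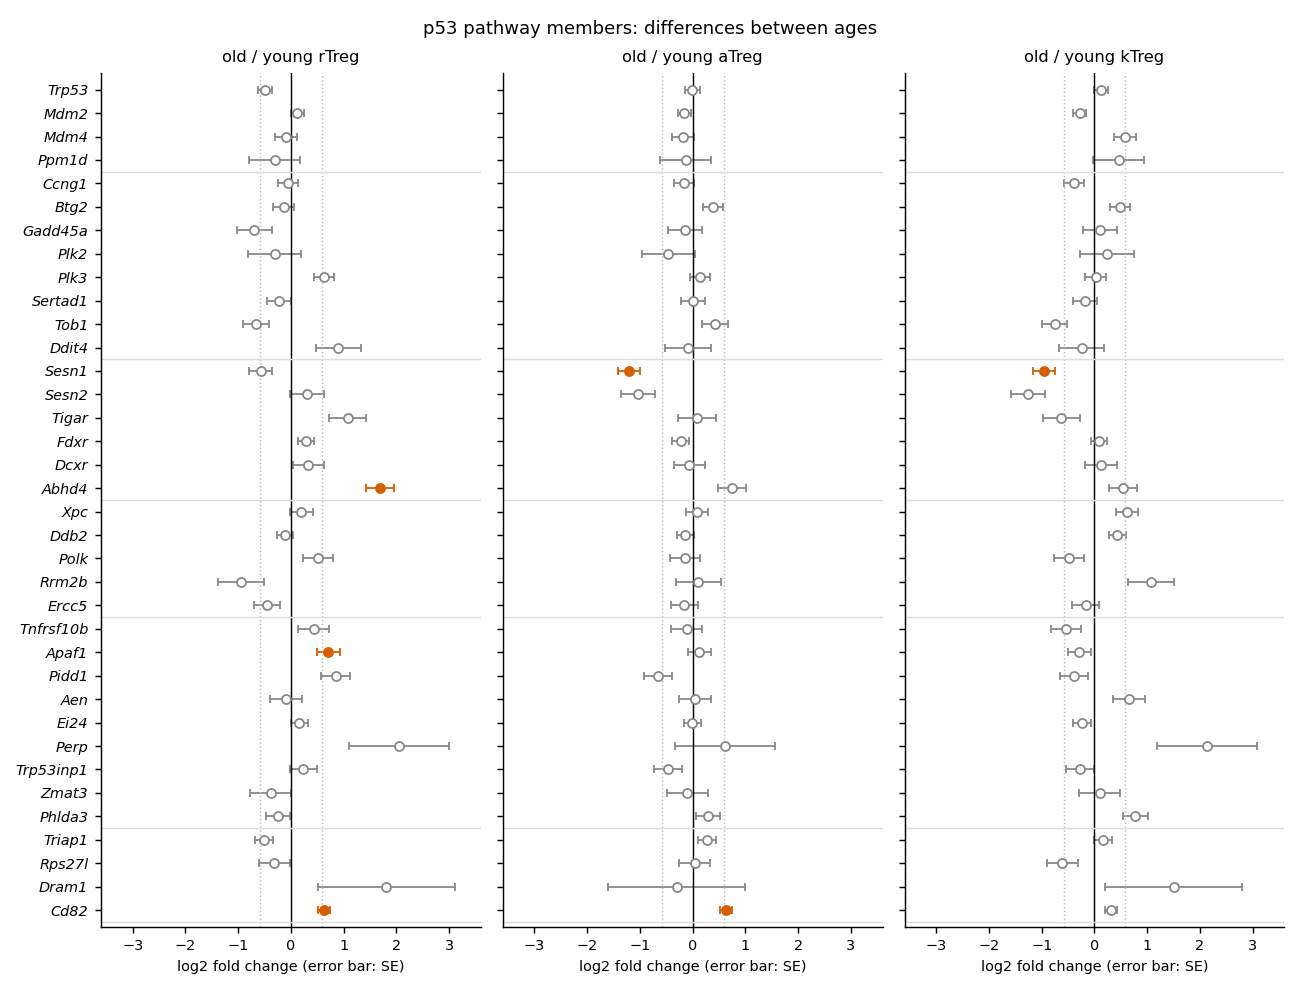
Log2 fold changes of the 36 members between old and young mice in each subset, with the standard error as bars and grey lines between roles. Filled orange points passed the adjusted p and the fold, and among these Abhd4 lies furthest to the right in rTreg cells (1.69) and Sesn1 to the left in aTreg (-1.20) and kTreg cells (-0.95).

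Sesn1 (chr10:41685931-41784423), the sestrin induced by p53, was lower in aTreg and kTreg cells of old mice. Its levels were 5079, 6829, 6367 and 7526 in young rTreg cells, 4596, 6360, 5348 and 6695 in young aTreg cells and 5870, 7305, 6879 and 6629 in young kTreg cells. Old mice had 4981, 2858, 4288 and 5510 in old rTreg cells, 2685, 1493, 3163 and 2929 in old aTreg cells and 2813, 3641, 3969 and 3417 in old kTreg cells. In aTreg and in kTreg cells all 4 old libraries lay below all 4 young ones, a separation found in 13.4% and 10.5% of all genes. In rTreg cells the ages overlapped. Sesn1 fell 2.3-fold in aTreg cells (log2 fold change -1.20 ± 0.21 (SE), adjusted p = 0.0017), under all alternatives, and 1.94-fold in kTreg cells (log2 fold change -0.95 ± 0.21 (SE), adjusted p = 0.0229). The kTreg call was lost in 9 of 32 fits without a library or a mouse. These left out young kTreg replicate 3 (adjusted p = 0.0502 by limma), old kTreg replicate 1 (0.0908), 2 (0.0529) or 4 (0.0727), or the libraries of young mouse 2, 3 or 4 or old mouse 1 or 4 (0.0504 to 0.121). In rTreg cells the value was log2 fold change -0.58 ± 0.21 (SE), adjusted p = 0.102, and whether the age difference differed between subsets did not pass a test (log2 fold change -0.63 ± 0.30 (SE), adjusted p = 0.308 for aTreg against rTreg cells).

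Sesn2 ran alongside it in aTreg and kTreg cells. All 4 old libraries were below all 4 young ones in both, with log2 fold change -1.04 ± 0.32 (SE), adjusted p = 0.0934 and log2 fold change -1.27 ± 0.32 (SE), adjusted p = 0.0523, neither past the threshold by limma. DESeq2 on the recovered reads called it in both subsets, and edgeR in kTreg cells. In old rTreg cells the 4 values spread from 143 to 493 around the young ones.

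Cd82 was higher in old mice in each subset, with no overlap of old and young libraries in any of the 3. Its log2 fold change was 0.63 ± 0.11 in rTreg (adjusted p = 0.00117), 0.64 ± 0.11 in aTreg (adjusted p = 0.00181) and 0.31 ± 0.11 in kTreg cells (adjusted p = 0.186), with SE. The separation was found in 11.7% of all genes in rTreg cells. The rTreg call fell under the fold of 1.5 without young rTreg replicate 3 (log2 fold change 0.52) and without old rTreg replicate 2 (0.55), and under the adjusted p with the rTreg libraries alone in the model (0.0677). The aTreg call fell under the fold with libraries rescaled to the same sum (0.55).

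Abhd4 was 3.22-fold higher in old than in young rTreg cells (log2 fold change 1.69 ± 0.26 (SE), adjusted p = 0.000316) under all 44 alternatives, and the highest young rTreg library, at 418, lay under the lowest old one, at 783. In aTreg (log2 fold change 0.75 ± 0.26 (SE), adjusted p = 0.162) and kTreg cells (log2 fold change 0.55 ± 0.26 (SE), adjusted p = 0.322) the difference did not pass. Apaf1 rose 1.63-fold in old rTreg cells, just past the threshold (log2 fold change 0.71 ± 0.21 (SE), adjusted p = 0.0495), and the call was lost under 27 of 44 alternatives, with adjusted p up to 0.234 by limma without the libraries of young mouse 3. In kTreg cells its log2 difference was -0.29 ± 0.21 (SE).

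Trp53 was lower in old rTreg cells, where all 4 old libraries lay below all 4 young ones (log2 fold change -0.50 ± 0.14 (SE), adjusted p = 0.0292), with a fold under 1.5. In aTreg and kTreg cells it overlapped between ages, with adjusted p = 1 and 0.657. In kTreg cells Mdm2 did not overlap between ages, with old below young libraries (log2 fold change -0.28 ± 0.13 (SE), adjusted p = 0.296), and the difference did not pass. Members without overlap between the ages numbered 8 in rTreg, 3 in aTreg and 9 in kTreg cells, against 11.7%, 13.4% and 10.5% of all genes. The rTreg members were Apaf1, Ppm1d, Rrm2b, Pidd1, Cd82, Tigar, Abhd4 and Trp53. The aTreg members were Cd82, Sesn2 and Sesn1, and the kTreg members Ddb2, Mdm2, Tnfrsf10b, Cd82, Sesn2, Xpc, Sesn1, Abhd4 and Mdm4. Of those not called, Tigar (log2 fold change 1.07 ± 0.36 (SE), adjusted p = 0.0708) and Pidd1 (log2 fold change 0.85 ± 0.27 (SE), adjusted p = 0.0608) lay above the young rTreg libraries and Rrm2b (log2 fold change -0.95 ± 0.43 (SE), adjusted p = 0.201) below them. In kTreg cells Mdm4 (log2 fold change 0.57 ± 0.21 (SE), adjusted p = 0.19) and Xpc (log2 fold change 0.62 ± 0.21 (SE), adjusted p = 0.164) lay above the young libraries and Tnfrsf10b (log2 fold change -0.54 ± 0.29 (SE), adjusted p = 0.369) below them.

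**Figure D5:**
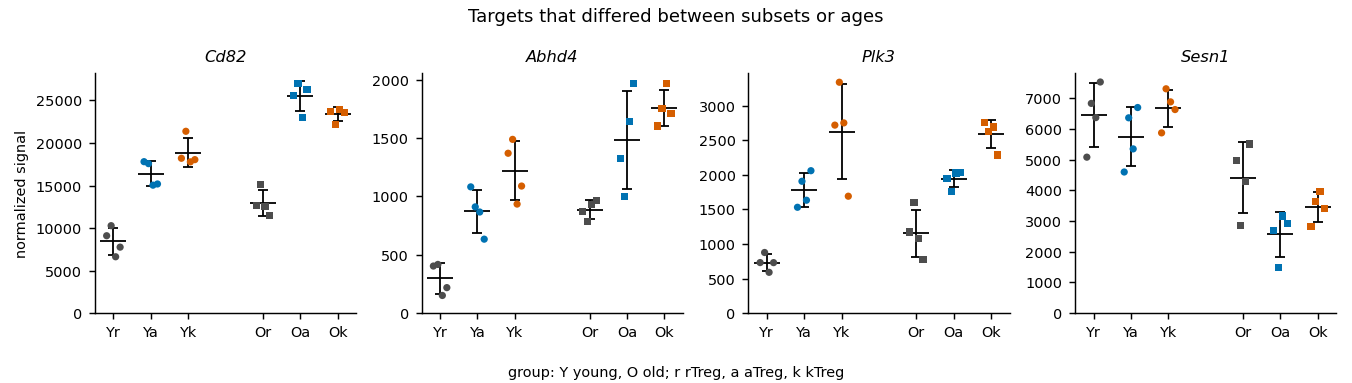
Normalized signal of Cd82, Abhd4, Plk3 and Sesn1 in each library, circles for young and squares for old mice, with the mean and SD of 4 mice as bars. Sesn1 falls from 5750 ± 959 to 2567 ± 743 in aTreg cells, and Abhd4 rises from 298 ± 133 to 886 ± 80.0 in rTreg cells.

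Some markers of other cells differed with age. In rTreg cells 1 of 3 plasma cell, 1 of 5 neutrophil and 1 of 4 NK cell markers were called higher in old mice, and 0 of 6 macrophage and monocyte markers. The share of all genes called higher there was 4.12%. The plasma cell markers summed to 8544 to 14180 in old and 4361 to 5554 in young rTreg cells, and the NK cell markers to 1489 to 2765 and 333 to 764. The neutrophil sums, 48.1 to 9837 and 26.1 to 2538, overlapped between ages. Of the 22 cell cycle genes 19 were higher in old rTreg cells, with sums of 56640 to 67900 in old and 22240 to 47820 in young mice. In aTreg cells the NK cell markers summed to 1812 to 4037 in old and 946 to 1131 in young mice, with 1 of 4 called lower. In kTreg cells the cell cycle sums of old mice were 28830 to 34880 against 39610 to 69070 in young mice, and 2 of the 22 genes were called lower. The plasma cell marker Jchain was called higher by limma in old aTreg (log2 fold change 5.82, adjusted p = 0.0272) and old kTreg cells (6.36, adjusted p = 0.0276). The plasma cell sums overlapped between ages in both. The NK cell marker Eomes was called higher in old kTreg cells (3.53, adjusted p = 0.0213). The part of these in the age differences of Abhd4, Apaf1, Cd82, Sesn1 and Trp53 was not tested.

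The third question was whether the age difference differed between subsets. It did for 1 member by this test, Pidd1 in aTreg against rTreg cells (log2 fold change -1.50 ± 0.38 (SE), adjusted p = 0.0475), against 1.56% of all genes (1.05% lower). The log2 difference of Pidd1 between old and young mice was 0.85 ± 0.27 (SE) in rTreg and -0.66 ± 0.27 in aTreg cells, neither past the threshold by itself. The call rested just under the threshold and was lost under 27 of 44 alternatives, with adjusted p up to 0.177 by limma without old mouse 2. For the age difference of kTreg against rTreg cells 0 members were called, against 3.02% of all genes (0.998% higher, 2.03% lower), and 16 of 36 had an unadjusted p below 0.05, against 17.2% of all genes. At the adjusted p alone the share was 3.05% of all genes and 0 members. For this difference DESeq2 called 5 members and 5.1% of all genes, and edgeR 2 members and 2.59%. Without young kTreg replicate 4 limma called 2, Phlda3 and Rrm2b, against 4.11% of all genes. For kTreg against aTreg cells 0 were called by limma, edgeR or DESeq2, against 0.156% of all genes by limma (0.0421% higher, 0.114% lower), and 3 of 36 had an unadjusted p below 0.05, against 9.4% of all genes.

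Further genes of the pathway are read against the same shares of all genes as the members. Of 17 further p53 targets tested, 2 (11.8%, beside 7.39% of all genes called) were higher in kTreg than in aTreg cells. They were Kitl, the ligand of Kit (log2 fold change 1.94 ± 0.60 (SE), adjusted p = 0.0373), and Slc19a2, a thiamine transporter (0.87 ± 0.27 (SE), adjusted p = 0.0335). Kitl was listed at 0 in all 4 old rTreg libraries. Against rTreg cells 3 of 17 (17.6%, beside 15.5%) were called, of which Kitl and Slc19a2 were higher and Fas, the death receptor, was lower (-0.76, adjusted p = 7.82e-06). Of 18 further regulators and relatives of p53, Trp73, which encodes p73, was higher in kTreg than in aTreg (3.65 ± 0.89 (SE), adjusted p = 0.00857) and rTreg cells (3.17 ± 0.89 (SE), adjusted p = 0.0119). Its libraries overlapped between the subsets in both comparisons. Rpl5, a ribosomal protein that binds Mdm2, was lower in kTreg than in rTreg cells (-0.80, adjusted p = 0.000374). In aTreg against rTreg cells and between ages in rTreg, aTreg and kTreg cells, limma called 0 of either list, and at an unadjusted p below 0.05 there were 4, 2, 1 and 3 further targets and 2, 1, 2 and 1 regulators in that order.

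Of 20 damage signalling genes, H2ax, the histone variant phosphorylated at DNA breaks, was higher in kTreg than in aTreg cells (0.64, adjusted p = 0.00189) and lower in aTreg than in rTreg cells (-0.75, adjusted p = 0.000395). With age it was higher in rTreg (0.98, adjusted p = 0.00151) and lower in kTreg cells (-0.79, adjusted p = 0.0268). Nbn, a subunit of the complex that binds broken ends, was lower in kTreg cells in 8 of 8 mice against both aTreg (-1.15, adjusted p = 1.77e-05) and rTreg cells (-1.25, adjusted p = 1.31e-06), and Rnf168, the ubiquitin ligase that marks chromatin at breaks, was higher than in rTreg cells (0.68, adjusted p = 0.0045). Of this list 1 was higher and 1 lower in kTreg than in aTreg cells and likewise against rTreg cells (10% called each time, beside 7.39% and 15.5% of all genes). In aTreg against rTreg cells 0 were higher and 4 of 20 lower (20%, beside 2.78% of all genes lower), among them Clspn, an activator of the checkpoint kinase Chk1 (-1.55, adjusted p = 0.00221), and 2 were higher in old rTreg cells, H2ax and Brca1, a repair ligase (1.35, adjusted p = 0.0304). Of the 22 cell cycle genes 15 were higher in kTreg than in aTreg cells, 15 lower in aTreg than in rTreg cells, 19 higher in old rTreg cells and 2 lower in old kTreg cells. Of 15 immediate early genes, which rise when cells are stimulated or handled, 2 were higher in kTreg than in aTreg cells (13.3%, beside 7.39% of all genes called). They were Zfp36 (1.02, adjusted p = 0.00434) and Nr4a1 (0.70, adjusted p = 0.0107). Another 2 were higher in kTreg than in rTreg cells (13.3%, beside 15.5%), Dusp1 (1.80, adjusted p = 0.000923) and Ier5 (0.59, adjusted p = 4.88e-06). Nr4a1 was called lower by limma in aTreg than in rTreg cells (-0.61, adjusted p = 0.0261). The part of the immediate early genes in the higher Plk3 and Sesn2 of kTreg cells was not tested.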

How the data were processed

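RNA was amplified from sorted splenic Treg subsets (SMART-Seq v4) and sequenced as paired reads of 150 bases. The submitters' processing notes name HISAT2 (2.2.1), SAMtools (1.13), HTSeq (1.99.2), DESeq2 (1.44.0) and GRCm39. The annotation release and the strand setting were not given in the sources used here. The deposited table holds normalized signal, for which the authors divided the reads of each gene by 1 size factor per library, and lists genes with at least 100 reads in sum. All values came out as whole reads within 0.001 reads, which returned counts of 15045747 to 29521942 per library. No molecular identifiers were used, so precision was taken from the spread between mice. Every column was mapped to a sample (0 left over), and 17353 of 17464 identifiers had a symbol.

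Members were matched by symbol. The 16630 genes that reached 10 units in 4 or more libraries were fitted as log2(value + 1) in 1 model of 6 groups with limma (3.58.1, R 4.3.3). Changes of low genes come out too small on this scale. P-values were adjusted by Benjamini-Hochberg over these genes within each of 9 comparisons, and not across comparisons. Values in every library are given for Trp53, Mdm2, Ccng1 and at most the 4 called members with the smallest p per subset or age comparison, and other members by range and counts. Genes of other lists are named where called, at most 2 per list and comparison with the smallest p. Alternatives were 13 other settings, edgeR (4.0.16) and DESeq2 (1.42.0) on the recovered reads among them, and 32 fits without a library or a mouse. The script was tested on simulated data. The members and lists were chosen with earlier results of these data known.

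The design text gives 4 young and 4 old mice as the source of all subsets. That a sample number marks a mouse is not stated, and was taken so from the shared numbers. Deviations from the group means of libraries with the same number correlated with a median r of 0.099 (24 pairs, -0.064 to 0.352), against -0.036 between numbers (72 pairs). Response elements were searched with Python (3.11.15) in GRCm39 at GENCODE M39 starts.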

Additional observations from a re-analysis of the deposited data

Results flagged for a closer look

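A library far from the other 3 of its group was found in 18 of 216 member and group pairs by Dixon's test, where chance gives about 1 in 20. Young kTreg replicate 4 was that library in 5 of them. There it had the lowest Ppm1d (94.3), Xpc (362.6) and Ddb2 (982.4) and the highest Sertad1 (2741) and Tigar (461.4). The highest library of young kTreg cells was replicate 3 for Gadd45a (227.4) and replicate 2 for Cd82 (21370).

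In old rTreg cells the highest values were those of replicate 3 for Sertad1 (2918) and Triap1 (934.5) and of replicate 1 for Tnfrsf10b (154.2). In old aTreg cells replicate 2 was highest for Ppm1d (920.4) and Triap1 (1482), and in old kTreg cells replicate 3 was highest for Pidd1 (543.6). In young aTreg cells replicate 4 was highest for Polk (698.1) and Phlda3 (272.8) and replicate 2 for Dram1 (149.2). In young rTreg cells replicate 1 was highest for Perp (30.82) and replicate 2 lowest for Ddb2 (1576).

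The age difference of Pidd1 differed between aTreg and rTreg cells, by -1.50 on the log2 scale in the interaction test of limma (adjusted p = 0.0475).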

How the results depend on the processing

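None of the members called turned its direction under the alternatives run. Counts at an unadjusted p keep the fold of 1.5. For kTreg against aTreg cells 4 members were called, 8 with no fold threshold and 2 with age left out. For aTreg against rTreg cells there were 4, and 7 at an unadjusted p. For age in rTreg cells there were 3, 11 at an unadjusted p, 1 with only the groups compared and 7 with DESeq2. For age in aTreg cells there were 2, 5 at an unadjusted p and 1 with libraries rescaled to the same sum. For age in kTreg cells there was 1, 9 at an unadjusted p, 3 with DESeq2 and 2 with a pseudocount of 5, a filter at 50, median-centred libraries or edgeR. For the age difference of kTreg against aTreg cells there were 0, and 2 at an unadjusted p. For that of kTreg against rTreg cells there were 0, 14 at an unadjusted p, 3 with median-centred libraries, 2 with edgeR and 5 with DESeq2. For that of aTreg against rTreg cells there was 1, 6 at an unadjusted p, 4 with DESeq2 and 0 with only the groups compared or median-centred libraries.

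With the mouse as a replicate block, 6 members were called for aTreg against rTreg cells and 1 for the age difference of kTreg against rTreg cells, and no other call changed.

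Without a library or a mouse, the members called ran from 3 to 5 for kTreg against aTreg, 8 to 11 for kTreg against rTreg and 4 to 7 for aTreg against rTreg cells. They ran from 1 to 8, 2 to 3 and 0 to 2 for age in rTreg, aTreg and kTreg cells, and from 0 to 0, 0 to 2 and 0 to 3 for the age differences of kTreg against aTreg, kTreg against rTreg and aTreg against rTreg cells. For age in rTreg cells there was 1 without young rTreg replicate 3, old rTreg replicate 2 or young mouse 3, and there were 5 without young mouse 2, 7 without young mouse 4 and 8 without young kTreg replicate 4. The 6 groups share 1 estimate of the spread. Leaving out a kTreg library therefore changed that estimate and not the rTreg log2 fold changes. What sets young kTreg replicate 4 apart was not tested. Of all genes called for age in kTreg cells, 81.3% were higher, 67.3% with median-centred libraries, 67.9% with edgeR and 58.2% with DESeq2. For the age difference of kTreg against rTreg cells 33.0% of the genes called were higher, 21.9% with median-centred libraries and 22.3% with edgeR.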
